A study of Mus musculus with 2 samples.

Results

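The 10 genes described here mark fat cells: Adipoq, Cfd, Lep and Retn, whose products are secreted, Plin1, Cidec and Cidea of the lipid droplet, Fabp4, Pck1 and Adrb3. They were chosen by name as adipocyte genes and found by symbol among 55536 annotated genes, and 10 of 10 were present in the tables. Their RNA was measured in whole gastrocnemius (a calf muscle) from 2 male adult mice of the hybrid strain B6CASTF1/J, a cross of B6 and Cast, at 8 to 10 months of age. Both animals are untreated as far as the labels say, form 1 group, and carry the numbers animal 2 (replicate 1) and animal 4 (replicate 2) under 1 shared donor identifier. Total RNA (300 ng, ribosomal RNA reduced, spike-in RNA added) gave 36792619 and 37752252 estimated gene counts. The labels call the animals separate biological replicates. Since there is 1 library per animal, a difference between them is one between libraries, and its biological and technical parts cannot be told apart.

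White adipocytes store triglyceride in a single large droplet and release fatty acids and hormones into the blood. Perilipin 1 coats the droplet and holds lipases back until catecholamines, acting through beta receptors, start lipolysis, and the CIDE proteins enlarge droplets by passing lipid between them. The nuclear receptor PPAR gamma and the C/EBP factors switch on most of these genes. In skeletal muscle, fat cells lie between the fibres and along vessels, and arise from fibro-adipogenic progenitors.

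Adipocyte transcripts were present at low levels, and Fabp4 stood far above the rest. Fabp4 was measured at 55.7 TPM in replicate 1 and 64.0 TPM in replicate 2 (TPM is a level corrected for transcript length and library size). It held 69.6% and 65.2% of the summed TPM of the 10 genes, which was 80.1 and 98.2. The other 9 genes together held 24.4 and 34.2 TPM, and 7 of the 10 genes reached 1 TPM in both animals. Of 22015 nuclear protein-coding genes, 9815 did so. Comparing the animals, 6 of 9 tested genes were higher in replicate 2 than counting noise allows and 0 of 9 in replicate 1 (exact binomial test, Benjamini-Hochberg adjusted over 14101 genes). Of all tested genes, 21.2% were called, 10.1% higher in the second animal and 11.1% higher in the first. The ratios were unequal among the 10 genes: Cfd and Pck1 were more than 2-fold higher in replicate 2, as were 0.347% of all genes averaging at least 100 counts, while Cidec had nearly the same level in both animals.

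How many of the 10 genes were called higher in replicate 2 depended on the scaling and on the spread assumed. It was 6 with DESeq2 size factors (11.1% of all genes) and 6 with total counts (25.3%), but 3 with spike-in counts (4.47%). A lower minimum of 1 count gave 5 (6.08%) and a higher one of 50 counts gave 6 (11.9%). When edgeR's exact test assumed a biological variation of 0.1 between animals, 2 genes passed, Cfd (adjusted p = 0.0025) and Pck1 (adjusted p = 0.0049), against 0.943% of all genes, and 1.12% passed in the other direction. With an assumed variation of 0.2 the same test called 0 of them, against 0.213% and 0.39% of all genes. Before adjustment, 2 of them and 450 of the 14101 tested genes had a p under 0.05.

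**Figure D1:**
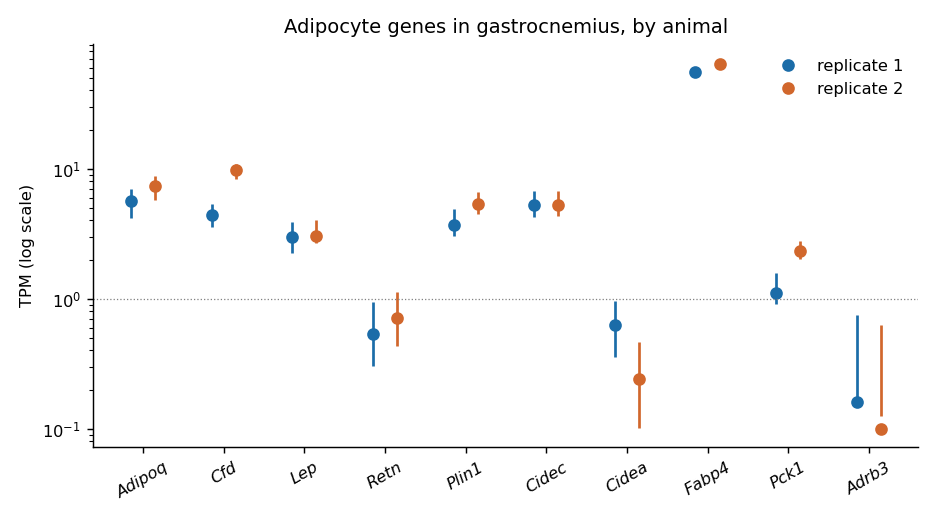
TPM (log axis) of each adipocyte gene in replicate 1 (blue) and replicate 2 (orange), with bars for the deposited credibility interval of each library and a dotted line at 1 TPM. Fabp4 stands at 55.7 and 64.0 TPM, and Retn, Cidea and Adrb3 lie below 1 TPM in both animals.

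The stretches just upstream of 4 of these genes are shown. Pck1 and Cfd had the largest ratios above 0, and the hormone genes Adipoq and Lep smaller ones. Each is the 250 bases before the RefSeq transcription start (GRCm38.p6), on the gene's strand, which is the plus strand for all 4. Capitals mark matches on either strand to TATAAA (the TATA box), to CCAAT, to TGACGT (the core of the cAMP response element), to TTGCNNAA (a C/EBP-like word) and the DR1 direct repeat bound by PPAR gamma.
Pck1, chr2:173152823-173153072: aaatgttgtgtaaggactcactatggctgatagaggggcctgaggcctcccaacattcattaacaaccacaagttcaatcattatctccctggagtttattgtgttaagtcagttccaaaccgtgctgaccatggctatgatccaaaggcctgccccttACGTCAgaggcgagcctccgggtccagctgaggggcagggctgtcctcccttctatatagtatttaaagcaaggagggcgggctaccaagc
Cfd, chr10:79890603-79890852: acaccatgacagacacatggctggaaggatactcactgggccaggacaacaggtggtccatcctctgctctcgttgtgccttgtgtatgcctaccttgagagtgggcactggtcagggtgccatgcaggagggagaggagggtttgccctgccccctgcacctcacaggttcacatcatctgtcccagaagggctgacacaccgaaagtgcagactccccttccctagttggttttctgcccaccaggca
Adipoq, chr16:23146286-23146535: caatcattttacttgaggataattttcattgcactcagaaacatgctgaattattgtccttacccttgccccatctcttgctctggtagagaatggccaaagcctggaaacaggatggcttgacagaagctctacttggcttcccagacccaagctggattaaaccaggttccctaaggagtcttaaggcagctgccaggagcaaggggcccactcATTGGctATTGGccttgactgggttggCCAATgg
Lep, chr6:29059971-29060220: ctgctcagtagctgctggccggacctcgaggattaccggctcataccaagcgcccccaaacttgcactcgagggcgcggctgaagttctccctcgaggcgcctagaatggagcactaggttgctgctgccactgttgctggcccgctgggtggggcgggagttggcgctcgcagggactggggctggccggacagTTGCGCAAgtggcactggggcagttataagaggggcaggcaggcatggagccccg

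RefSeq windows were matched for 7 of the 10 genes, 8 windows in all. The Pck1 window held TGACGT on the opposite strand, beginning 91 bases upstream, a word found in 6.47% of 32851 such windows. TTGCNNAA was found in windows of Cidec, Lep and Plin1 and in 9.56% of all windows. Adipoq held CCAAT or its complement at 3 places within 34 bases of the start, and 33.9% of all windows held it at least once. None of the 8 windows held the exact word TATAAA (12.4% of all windows) or the perfect DR1 word (0.0335%), and the Cfd window held none of the 5 words. Imperfect DR1 repeats were not searched. A match describes letters in a window of the reference sequence and not a bound site. Letters that differ on the Cast allele of these animals were not examined. A link between the words and the ratios was not tested.

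Among the secreted products, adiponectin, the insulin-sensitising hormone made almost only by fat cells, is encoded by Adipoq (ENSMUSG00000022878.5, chromosome 16, 23146536 to 23158028 in mm10). Adipoq had 104 counts and 5.64 TPM in replicate 1 and 170 counts and 7.38 TPM in replicate 2. The deposited credibility intervals, 4.17 to 6.93 and 5.78 to 8.74 TPM, overlapped, but the scaled counts were 1.46-fold higher in replicate 2 (log2 ratio 0.55, 95% interval 0.19 to 0.92, adjusted p = 0.0144, exact binomial test). The call was lost under spike-in scaling (0.40, adjusted p = 0.0681) and under scaling on vessel markers (0.30, adjusted p = 0.163). In TPM the mean was 6.51 ± 1.23 (SD, n = 2). Here and below the 95% interval is the exact Clopper-Pearson interval, and intervals cover counting error only.

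Cfd encodes adipsin (complement factor D), the protease that starts the alternative complement pathway and a classic product of fat cells (ENSMUSG00000061780.6, chromosome 10, 79890853 to 79892655). It had 92 counts at 4.44 TPM in replicate 1 and 227 counts at 9.78 TPM in replicate 2. The credibility intervals, 3.54 to 5.33 and 8.40 to 10.9 TPM, did not overlap. Its log2 ratio of 1.14 (0.79 to 1.51), or 2.20-fold, had an adjusted p of 7.49e-10 (exact binomial test).

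Lep encodes leptin, the satiety hormone whose level follows fat mass (ENSMUSG00000059201.12, chromosome 6, 29060220 to 29073877). It had 188 counts in replicate 1 and 271 in replicate 2, a log2 ratio of 0.37 (0.10 to 0.65) with an adjusted p of 0.0373 (exact binomial test). The call was lost in the second quantification, at 0.32 with an adjusted p of 0.065, under spike-in scaling (0.23, adjusted p = 0.212), with a minimum of 1 count (adjusted p = 0.056) and under scaling on vessel markers (0.12, adjusted p = 0.504), all by the exact binomial test. In TPM, Lep was almost equal, at 2.97 and 3.02. The first quantification placed 5.47 of the replicate 1 counts on the 420-base transcript Lep-202, which then held 22.8% of Lep TPM, against 0.66% in replicate 2. In the second quantification Lep-202 held 47.2% and 36.5% of Lep TPM from 9.89 and 9.28 counts, so the TPM of Lep rests on the placement of few reads.

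Retn encodes resistin, which in mice is made by fat cells (ENSMUSG00000012705.16, chromosome 8, 3655770 to 3660110). It was barely detected, with 12 counts at 0.54 TPM in replicate 1 and 16 counts at 0.71 TPM in replicate 2. The log2 ratio of 0.23 had an interval from −0.91 to 1.47, which holds both a lower and a more than 2-fold higher level in replicate 2 (adjusted p = 0.918, exact binomial test). Retn and its paralog Retnla, at 0.88 and 1.19 TPM, were the only detected members of the resistin family, and Retnlb and Retnlg had 0 counts in both animals.

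Of the droplet proteins, perilipin 1 is encoded by Plin1 (ENSMUSG00000030546.14, chromosome 7, 79720218 to 79732903). It had 164 counts at 3.67 TPM in replicate 1 and 287 counts at 5.39 TPM in replicate 2. This was a log2 ratio of 0.65 (0.37 to 0.94), or 1.57-fold higher in replicate 2, with an adjusted p of 5.05e-05 (exact binomial test). The credibility intervals of its TPM, 3.01 to 4.87 and 4.48 to 6.60, overlapped slightly.

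Cidec (FSP27), which drives the fusion of droplets into a single large one, had a level near that of Adipoq and was not called (ENSMUSG00000030278.11, chromosome 6, 113424634 to 113435760). It had 174 counts at 5.23 TPM in replicate 1 and 192 counts at 5.30 TPM in replicate 2. The log2 ratio was −0.01, with an interval from −0.32 to 0.29 (adjusted p = 1, exact binomial test). That interval lies below the whole intervals of Cfd, Pck1 and Plin1, a comparison of intervals that does not depend on the scaling, and overlaps those of Adipoq, Lep and Fabp4. The other CIDE gene measured, Cidea of brown fat (ENSMUSG00000024526.9, chromosome 18, 67343604 to 67367785), had 16 counts at 0.63 TPM and 7 counts at 0.24 TPM. It was 1 of 3 of the genes with a ratio below 0, at −1.24 (−2.87 to 0.01), and was not called (adjusted p = 0.167, exact binomial test). Cideb, of liver and intestine, had 0 counts in both animals.

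**Figure D2:**
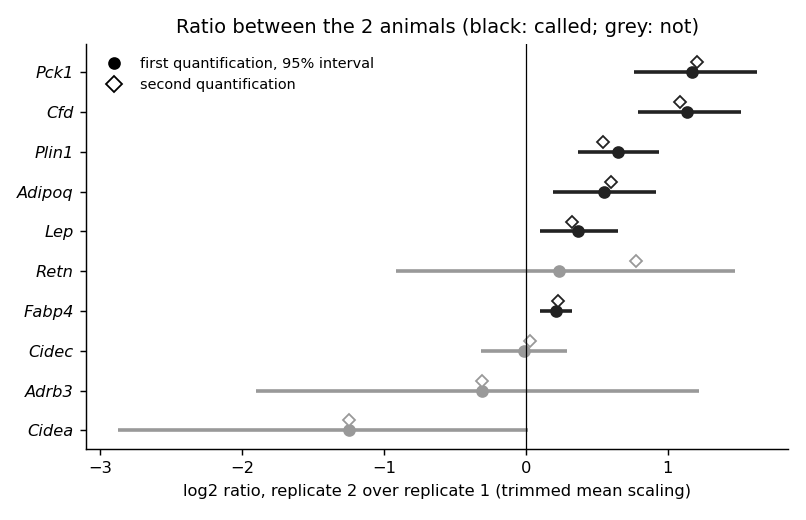
Log2 ratio of scaled counts, replicate 2 over replicate 1, with 95% intervals (circles, first quantification) and the second quantification (diamonds), called genes in black and others in grey. Pck1 at 1.17 and Cfd at 1.14 lie to the right, Cidec lies at −0.01, and the intervals of Retn, Adrb3 and Cidea span 0.

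Fabp4 encodes the adipocyte fatty acid-binding protein (aP2), a carrier that is also made by capillary endothelium and macrophages (ENSMUSG00000062515.3, chromosome 3, 10204088 to 10208576). Its 1182 counts in replicate 1 and 1524 in replicate 2 made it the best measured of the 10 genes. It ranked 962 and 838 among nuclear protein-coding genes by TPM, where Adipoq ranked 6083 and 5144. Fabp4 was 9.88-fold above the next adipocyte gene in replicate 1 and 6.54-fold in replicate 2. The log2 ratio was small, 0.21 (0.10 to 0.32), and was called (adjusted p = 0.00166, exact binomial test). It fell to 0.07 and was no longer called when libraries were scaled on spike-ins (adjusted p = 0.392).

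Pck1, cytosolic phosphoenolpyruvate carboxykinase, supplies the glycerol backbone for triglyceride in fat cells and glucose in liver and kidney (ENSMUSG00000027513.11, chromosome 2, 173153048 to 173159273). It had 64 counts at 1.10 TPM in replicate 1 and 162 counts at 2.31 TPM in replicate 2. The log2 ratio of 1.17 (0.76 to 1.62), or 2.25-fold, was the largest above 0 of the 10 genes (adjusted p = 1.83e-07, exact binomial test), and the TPM intervals, 0.907 to 1.59 and 2.01 to 2.80, did not overlap. The markers of liver and kidney, Alb, Apoa1, Ttr, Serpina1a, Slc34a1, Kap and Umod, together had 8 and 3 counts.

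Adrb3, the beta-3 adrenergic receptor that triggers lipolysis in mouse fat, was the least abundant gene (ENSMUSG00000031489.15, chromosome 8, 27225776 to 27250616). It had 9 and 8 counts, at 0.16 and 0.10 TPM, and was not tested because its mean lay below 10 counts. The 3 counts that a count of 0 allows corresponded to 0.0815 and 0.0795 CPM (counts scaled to library size) in these libraries. The antisense gene Gm45470 overlaps it and had 0 counts in both animals.

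Read sharing with other genes was small for most of the set. Of all 31-base words in the annotated transcripts, 100% were unique to the gene, matching the same strand only, for Adipoq, Cfd, Lep, Cidec and Cidea, and 96.8% to 99.7% for Retn, Plin1, Fabp4, Pck1 and Adrb3. With both strands counted, as the counting strand is not given, the share was 78.0% for Adrb3. All 20 gene counts of the first quantification were whole numbers (within 0.005). The second quantification, derived from the read files per the deposited README, gave ratios of the same sign for 9 of the 10 genes, the exception being Cidec at 0.03. It called 5 of them higher in replicate 2 (Adipoq, Cfd, Plin1, Fabp4 and Pck1), where 9.76% of genes were called in that direction.

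The coding transcript of Fabp4 held 98.6% and 98.8% of its TPM, and the intron-retaining one 1.40% and 1.16%, or 3.49% and 2.42% in the second quantification. The coding transcript of Pck1 held 82.2% and 92.7% of its TPM, from 58.5 and 157 counts, and an intron-retaining transcript of 1211 bases had 5.51 and 5.37 counts. The second quantification gave 62.5 and 155 counts to the coding transcript, and 0 and 13.0 counts to another intron-retaining one of 2728 bases. Cfd-201 took 100% of Cfd in both animals in the second quantification, but 82.7% in replicate 2 in the first, where Cfd-202 received 37.3 counts. Adipoq was split between Adipoq-201 of 1292 bases and the short Adipoq-202 of 539 bases, which held 61.1% and 51.0% of Adipoq TPM (56.3% and 44.9% in the second quantification). Adipoq-201 held 65.9 and 123 counts and Adipoq-202 38.1 and 47.1 counts.

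The transcript shares of Cidec differed between the animals. Cidec-201 held 55.5% of Cidec TPM in replicate 1 and 9.46% in replicate 2, and Cidec-202 held 19.5% and 59.2%. The second quantification gave 39.5% and 0.0154% for Cidec-201, and 45.1% for Cidec-202 in replicate 2, while the short Cidec-204 of 376 bases took 46.8% and 42.4%, from 16.1 and 15.3 counts. The pair differ in the 5′ untranslated first exon, of 32 bases in Cidec-201 (113435725 to 113435756) and 47 bases in Cidec-202 (113435714 to 113435760), and by 2 bases at the 3′ end. Only 23 of the 1660 words of Cidec-201 and 40 of the 1677 words of Cidec-202 were absent from the other, so the split rests on reads over these few bases. Together the pair held 159 and 168 counts. Plin1 was led by its transcript of 2817 bases at 55.5% and 61.3%. In the second quantification that transcript held 48.5% and 43.7%, so the order of the animals turned.

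**Figure D3:**
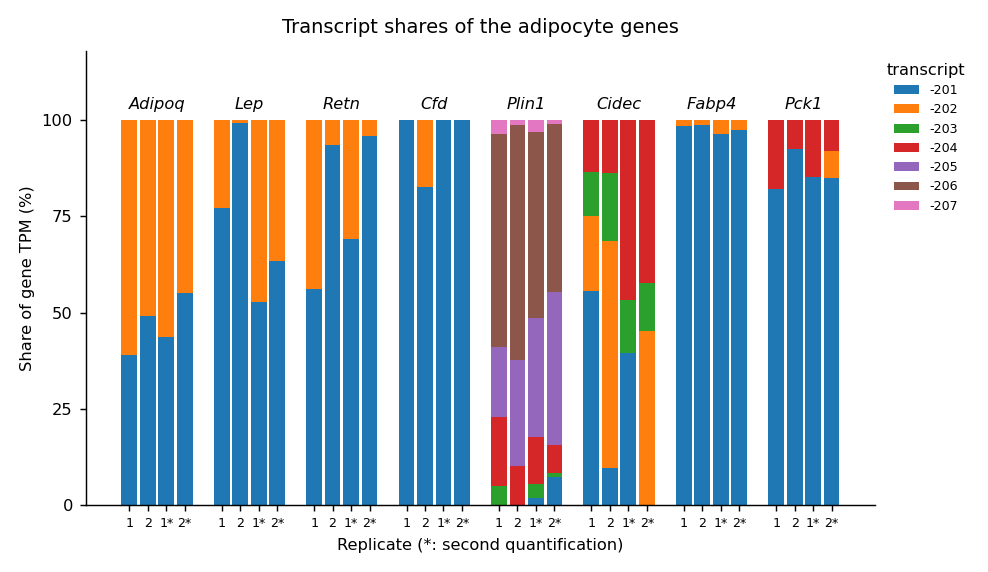
Share of each gene's TPM (%) held by its annotated transcripts in replicates 1 and 2, and in the second quantification (marked with an asterisk), as stacked bars for 8 of the genes. In the first quantification Cidec-201 takes 55.5% of Cidec in replicate 1 and Cidec-202 59.2% in replicate 2, whereas the coding transcript of Fabp4 stays at 98.6% and 98.8%.

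Fabp3 exceeded Fabp4 in both animals and both quantifications. Fabp3, the fatty acid carrier of muscle, was measured at 425 and 317 TPM, 7.63-fold and 4.95-fold above Fabp4, and Fabp5 at 1.68 and 2.14 TPM. Fabp3 and Fabp4 moved in opposite directions, at log2 ratios of −0.40 and 0.21. Only 62.7% of the words of Fabp3 were found in no other gene, Fabp3-ps1 among those sharing them. The other 6 fatty acid-binding genes listed had 0 counts in the first quantification.

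Among perilipins, Plin4 held 54.8 and 47.5 TPM and Plin2, the general droplet coat, 24.6 and 28.2 TPM. Plin5 of oxidative tissues held 9.92 and 7.41 TPM and Plin3 9.49 and 12.1 TPM. Plin1, the perilipin of white fat, was the least abundant of the 5 in the first quantification, at 3.67 and 5.39 TPM. In the second it held 3.99 and 5.85 TPM and Plin5 7.55 and 5.75 TPM, so their order turned in replicate 2. Plin1 was the only perilipin called higher in replicate 2, while Plin4 (−0.18) and Plin5 (−0.39) were called higher in replicate 1. The beta-1 receptor gene Adrb1 had 2 counts in each animal, and 3 and 11.0 in the second quantification. Adra1a, an alpha receptor, held 1.98 and 1.43 TPM and was called higher in replicate 1 (−0.46), the only called one of 5 tested adrenergic receptors. Adra2c (1.61) and Adra2b (0.88) had larger ratios at under 1 TPM and were not called. Pck2, the mitochondrial form of the enzyme, held 0.87 and 1.69 TPM and was not called (0.40, adjusted p = 0.318, exact binomial test).

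**Figure D4:**
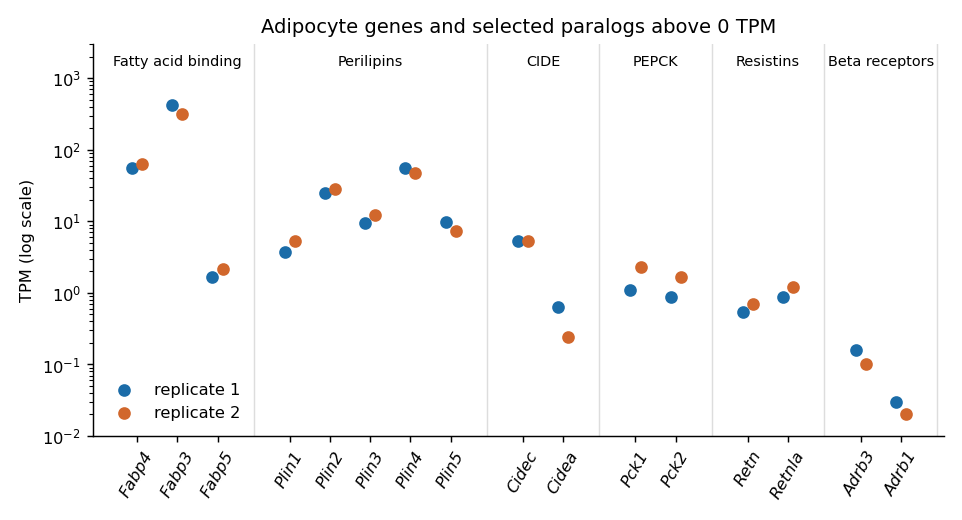
TPM (log axis) of adipocyte genes and selected paralogs with counts above 0, by family, in replicate 1 (blue) and replicate 2 (orange). In this first quantification Fabp3 lies above Fabp4, and Plin2 to Plin5 lie above Plin1, in both animals.

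Other adipocyte genes gave a mixed picture. Of 18 genes on this list 17 were tested, with 12 not called, 5 called higher in the second animal and 0 in the first, with a median log2 ratio of 0.12. The median was −0.02 under spike-in scaling, and over all tested genes it was 0.00 in the fit used and −0.15 under spike-ins. Thrsp, a lipogenesis factor, had 6.07 and 9.39 TPM (0.65), Trarg1, of glucose transporter traffic, 0.73 and 1.39 TPM (0.94), and Hp, haptoglobin, 3.32 and 5.01 TPM (0.61). Cyp2e1 (0.64) was also called, as was Gpd1, which makes glycerol 3-phosphate and is abundant in fibres (192 and 209 TPM, 0.15). Lgals12 (0.25 and 0.46 TPM, 0.84) and Dgat2 of triglyceride synthesis (18.8 and 19.8 TPM, 0.04) were not called, nor were Lipe, hormone-sensitive lipase (−0.05), the glycerol channel Aqp7 (0.12) and Adig (−0.28). In the list of 8 tested genes around glyceroneogenesis, Gpd1 was the only one called, and Gpd2 (82.3 and 89.1 TPM) and Fbp2 (12.2 and 14.1 TPM, 0.23) were not. The second quantification called Fbp2 higher in replicate 2 (0.29, adjusted p = 0.0233, exact binomial test).

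Pparg, the main factor of fat cell differentiation, was measured at 1.32 and 1.79 TPM from 56 and 64 counts (0.03, adjusted p = 1, exact binomial test), and Cebpa at 1.90 and 2.38 TPM (0.40, adjusted p = 0.113, exact binomial test). Cebpa was called higher in replicate 2 only in the second quantification (0.44, adjusted p = 0.0474, exact binomial test). Of 11 factors of fat cell differentiation, 2 were called higher in replicate 2, Ebf1 (0.83) and Klf15 (0.37), and 2 higher in replicate 1, Cebpb (37.7 and 22.7 TPM, −0.71) and Rxra (64.1 and 60.2 TPM, −0.10).

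Lipid handling genes that fibres and fat cells share were called in both directions. Of 15 tested lipolysis and droplet genes, 2 were called higher in replicate 2, Pnpla2, the first triglyceride lipase (103.3 and 115.3 TPM, 0.14), and Pde3b (0.30). In the same list 5 were called higher in replicate 1, led by the lipase inhibitor G0s2 (11.6 and 5.95 TPM, −0.94) and Mgll, monoglyceride lipase (−0.62), while the most abundant, Fitm1 (119.0 and 122.0 TPM, 0.06), was not called. The 17 genes of lipogenesis and lipid uptake were split, 5 in each direction and 7 not called. Acly (0.49), Scd1 (0.41), Scd2 (0.30) and Fasn (0.26) of fatty acid synthesis and Slc2a4, the insulin-responsive glucose transporter (164.1 and 176.2 TPM, 0.12), were called higher in replicate 2, and Lpin1 (−0.25), Lpl (−0.23), Cd36 (−0.18), Acaca (−0.20) and Acacb (−0.11) in replicate 1. Acaca was not called in the second quantification (−0.16, adjusted p = 0.0962, exact binomial test). The calls of Fasn and Pde3b rest on scaled counts. In TPM, Fasn was slightly lower in replicate 2, at 4.25 and 4.07 (3.50 and 3.28 in the second quantification). Pde3b was nearly equal, at 2.30 and 2.31 TPM. Elovl6 (0.31 and 0.45 TPM, 0.72) was not called. Of 8 tested genes that respond to fatty acids, 5 had a called higher level in replicate 1, and 0 in the other animal, among them Pdk4 (302 and 76.7 TPM, −1.92), Ucp3 (−1.11) and Angptl4 (−0.99). Cpt1b of muscle fatty acid entry held 113.2 and 105.0 TPM and was not called.

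Brown fat genes were called in both directions, 2 of 8 tested in each. Ucp1 and Elovl3 of brown fat had 0 counts in both animals, which in replicate 1 allows up to 0.0815 CPM, and Prdm16 had 0.69 and 0.87 TPM. Cox8b (736 and 808 TPM) and Cox7a1 (412 and 393 TPM), known from brown fat, are also fibre genes. Zic1 (0.27 and 0.40 TPM, 1.79) and Cox8b (0.16) were called higher in replicate 2, and Dio2 (0.37 and 0.17 TPM, −1.05) and Ppargc1a (−0.54) in replicate 1. The receptors of adiponectin, Adipor1 (97.3 and 96.6 TPM), Adipor2 (40.9 and 38.3 TPM) and Cdh13, were well expressed and not called. The leptin receptor gene Lepr had 0.35 and 0.48 TPM and was called higher in replicate 2 (0.79, adjusted p = 0.03, exact binomial test), a call lost in the second quantification (0.47, adjusted p = 0.214). Of the alternative complement genes on which adipsin acts or which surround it, Cfb, its substrate, had 0.79 and 0.75 TPM and C3 4.19 and 4.52 TPM, and 2 of 8 tested, C3 (0.23) and Cd55 (22.8 and 24.4 TPM, 0.20), were called higher in replicate 2. C3 was not called in the second quantification (adjusted p = 0.065, exact binomial test). The anaphylatoxin receptor gene C5ar1 (0.24 and 0.32 TPM, 0.39) was not.

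Vessel markers, like the adipocyte genes, were called higher in replicate 2 in part, and 0 of either set higher in replicate 1. All 13 endothelial markers were tested, 8 called higher in replicate 2 and 0 in replicate 1, with a median log2 ratio of 0.31 and a summed level of 145 and 177 TPM. Aqp1 led them at 59.8 and 81.5 TPM (0.47), with Car4 (0.86) and Tie1 (0.76) the most different and Egfl7 (15.5 and 14.9 TPM) not called. Calls in the same direction were made for 8 of 9 mural markers and in the other for 0, with a median of 0.56 and sums of 168.5 and 200.8 TPM. Myh11 of smooth muscle (4.79 and 10.2 TPM, 1.09) and Kcnj8 of pericytes (1.06) were the most different, and Rgs5 (58.4 and 66.5 TPM, 0.21) and Abcc9 (63.3 and 60.6 TPM, −0.02, not called) the most abundant. The adipocyte genes had a median of 0.37 over the 9 tested. The 10 fibroblast markers summed to 278 and 308 TPM (median −0.01). Gsn (0.32) and Dcn (0.12) were called higher in replicate 2 and Col1a1 (−0.15) in replicate 1, and Dpp4 (1.41 and 0.42 TPM) and the progenitor marker Pdgfra (4.23 and 4.59 TPM) were not called. None of 8 tested macrophage markers was called by the exact binomial test (median −0.08, sums of 14.4 and 13.4 TPM), Lyz2 (5.18 and 6.30 TPM), Csf1r, C1qb (−0.83) and Cd163 (−0.51) among them. In the second quantification Cd163 was called higher in replicate 1 (−0.54, adjusted p = 0.031, exact binomial test). When the libraries were instead scaled on the summed counts of the 2 vessel lists, a choice made after the values were seen, 3 adipocyte genes were called higher in replicate 2, Cfd, Plin1 and Pck1, against 2.74% of all genes. Fabp4 then had a log2 ratio of −0.04, and Cidea was called higher in replicate 1 (−1.49, adjusted p = 0.0391, exact binomial test). Cidea had only 16 and 7 counts and was not called in the main fit. Under vessel scaling the median over all tested genes also fell, to −0.25. The share of all genes called higher in replicate 1 under it was not computed. Abcc9 alone gave 11278 of the 20336 counts of the mural list in replicate 1 and 12394 of 25744 in replicate 2. That scaling therefore leans on 1 gene, and which cells of whole muscle its reads come from was not tested. The part of vessel content in the adipocyte differences was otherwise not tested. In bulk tissue, fewer fat cells and less RNA per fat cell cannot be told apart.

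**Figure D5:**
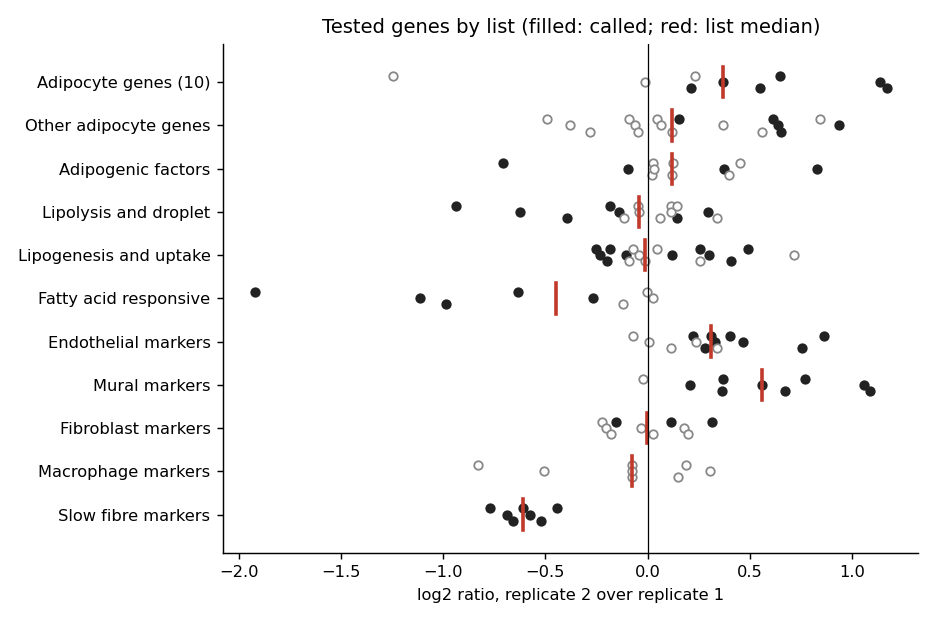
Log2 ratios, replicate 2 over replicate 1, of the tested genes of each list (filled points called, open points not called, red bars the list medians). The adipocyte, endothelial and mural medians lie at 0.37, 0.31 and 0.56, and the slow fibre median at −0.61.

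Both libraries were rich in fast fibre genes: Myh4, Mylpf, Tnnt3, Tnni2, Tnnc2, Atp2a1, Actn3 and Myh1 summed to 63884 and 69737 TPM. No other muscle was compared, so these values cannot tell gastrocnemius from other fast muscles. The slow fibre genes were lower in replicate 2, with 7 of 7 called and a median of −0.61, among them Myl2 (−0.52), Myl3 (−0.44), Tnni1 (−0.77) and Tnnt1 (−0.69). Krt5, Krt14 and Krt1 of skin had 0 counts in both animals, as did Cd3e of T cells and, in the first quantification, Cd79a of B cells, while Ptprc of leukocytes had 0.41 and 0.23 TPM. The skin list also held Krt10 (1.84 and 0.77 TPM, not called) and Mc5r (0.74, called higher in replicate 2). The 7 neutrophil markers, S100a8 and S100a9 among them, had 4 and 2 counts in all in the first quantification, while the second placed 18.2 and 15.9 counts on Cxcr2. Of the Schwann cell markers, Mbp (12.2 and 12.9 TPM), Pmp22 and Sox10 were not called.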

How the data were processed

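Tables were deposited for every library, 1 by gene and 2 by transcript, on mm10 with GENCODE M21 per the deposited README. The authors deposited expected counts, which are read estimates with no normalization. The deposited TPM values are corrected for length and library size. The deposited percent is a transcript's share in its gene, per the file headers. The deposited credibility bounds of TPM have no stated level. Column names are those of RSEM and, for the other transcript table (the second quantification), kallisto. The sources used here give no aligner, version or counting strand, and the labels name a directional kit.

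Expected counts were rounded and scaled with TMM factors in edgeR 4.0.16 (R 4.3.3), and ratios had 1 count added. For the 14101 genes averaging at least 10 counts, a two-sided exact binomial test, conditional on the gene's total, was adjusted by Benjamini-Hochberg (threshold 0.05). It compares 2 libraries, since no residual spread is left for edgeR's quasi-likelihood test. A chi-square statistic averaged over the tested genes was 94.4, more than sampling noise gives. It was scaled on total counts and not TMM factors, so it also holds the offset between these scalings. Gk stood for the listed Gyk. Members, lists and promoter words were chosen with earlier results of these data known. All 10 genes are named, and of each other list at least the pair with the highest TPM and the pair with the largest ratio among tested genes. A few others, such as Cyp2e1 and Prdm16, were named after their values were seen, and some lists exceed the planned 6 names. The test was checked on simulated counts that held sampling noise only and no spread between animals. That check cannot show how the test behaves under such spread. Alternatives were size factors of DESeq2 1.42.0, total counts, spike-ins, other minimums and priors, an assumed variation of 0.1 or 0.2, the second quantification, TPM over protein-coding genes and single animals. Vessel marker scaling, TPM ratios (0.1 TPM added) and the sum without Fabp4 were added after seeing the data. Python 3.11.15 was used with pandas 2.3.3, numpy 2.4.6, matplotlib 3.10.9 and scipy 1.17.1. Some listed genes are not reported here.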

Additional observations from a re-analysis of the deposited data

How the results depend on the processing

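Of the 6 adipocyte genes called higher in replicate 2, 3 were called under spike-in scaling and 3 under vessel marker scaling (added after the data were seen), where Fabp4 turned to −0.037 and Retn to −0.016. The edgeR exact test with an assumed biological variation of 0.1 called 2, Cfd and Pck1, against 0.943% of all genes, and with 0.2 it called 0, where 2 of the 10 genes and 450 genes in all had an unadjusted p under 0.05. DESeq2 size factors, total counts, other priors and other minimums kept the count within 1.5 times. The cause of these changes was not tested. Cidec, not called in any of these, turned to 0.10 under total counts, 0.026 in the second quantification and 0.019 as a ratio of TPM. The summed level of 89.2 TPM was 205 over nuclear protein-coding genes, 78.5 in the second quantification, 29.3 without Fabp4, and 80.1 to 98.2 in single animals. No paired analysis was possible because there is 1 group. Retn, Cidea and Adrb3, with 7 to 16 counts, are limited by depth.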
